A study of Mus musculus with 48 samples.

Results

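The interaction of corticosterone and atglistatin asks whether the inhibitor changed gene expression in mouse muscle by a different amount when corticosterone was present. All 48 of the 48 libraries of the series entered this contrast, which was (Cort_ATGLi minus Cort_CON) minus (EtOH_ATGLi minus EtOH_CON) on the log2 scale. RNA came from mixed gastrocnemius, a calf muscle, of male C57BL6J mice of unstated age. Cort_ATGLi mice (n = 14) drank corticosterone at 100 ug/ml for 2 weeks and ate chow with atglistatin at 571 mg/kg. Cort_CON mice (n = 14) drank the same corticosterone water and ate control chow. EtOH_ATGLi mice (n = 10) drank vehicle water with 1% ethanol and ate the atglistatin chow. EtOH_CON mice (n = 10) had vehicle water and control chow. The labels do not say if ethanol was in the hormone water too, so the water groups may differ in ethanol as well as in hormone. The labels call 9 of the Cort_CON mice diabetic and 5 nondiabetic, and every Cort_ATGLi, EtOH_ATGLi and EtOH_CON mouse nondiabetic. The diet groups on corticosterone water therefore also differ in labelled diabetes, and the 2 cannot be fully told apart.

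Corticosterone is the main glucocorticoid of mice. It binds the glucocorticoid receptor, which moves to the nucleus and raises or lowers transcription of its target genes, and in fast muscle prolonged exposure is known for protein loss and insulin resistance. Atglistatin inhibits mouse adipose triglyceride lipase (ATGL, encoded by Pnpla2), which removes the first fatty acid from stored triglyceride in fat and in muscle lipid droplets. Fatty acids released in this way are both fuel and a source of ligands for PPAR receptors, which drive genes of fatty acid oxidation.

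The QuantSeq libraries read the 3′ end of polyadenylated RNA. Total counts per library were 11283326 to 18743702 in Cort_ATGLi, 10585234 to 22921262 in Cort_CON, 10453888 to 24034481 in EtOH_ATGLi and 12259500 to 20316002 in EtOH_CON. Levels below are CPM, counts divided by the TMM-scaled size of their library, and are not divided by gene length. Myofibre markers (12 of 12 measured, actin, creatine kinase and fast myosins among them) summed to between 92920 and 162200 CPM in each library, as the tissue label would have it. Among all libraries, EtOH_CON replicate 1 and Cort_ATGLi replicate 41 correlated least with their own group (mean r over log2 CPM of 0.942 and 0.946, highest in any library 0.972). In EtOH_ATGLi replicate 13, 49.6% of the gene counts were odd, whereas every count of the other 47 libraries was even. Each sample has separate glucose and insulin readings and is treated here as a mouse of its own. No label states that the samples are separate animals, and the p-values measure only the spread between these samples.

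The metabolic values in the labels had a different diet response on the 2 waters. Fed glucose was 114.9 ± 14.8 in Cort_ATGLi and 243.6 ± 79.9 in Cort_CON (SD, n = 14 each), and 120.9 ± 16.5 in EtOH_ATGLi and 132.4 ± 10.9 in EtOH_CON (SD, n = 10 each), in a unit the labels do not name. The highest Cort_ATGLi value was 138 and the lowest Cort_CON value was 131, so the groups nearly separated. The difference of the 2 diet differences was -117.2 (SE 22.6, two-sided permutation test with 100000 resamples, p = 3e-05, adjusted over 2 measures p = 6e-05). With the 9 diabetic Cort_CON mice alone it was -164.5, and with the 5 nondiabetic ones alone it was -32.2 (SE 22.3, permutation p = 0.0244). The permutation pools residuals of all groups, whereas the SD was 47 in these 5 mice and 10.9 to 16.5 in the other groups. With all Cort_CON mice the SD of that group was 79.9. The permutation p-values for glucose, that for all mice included, are therefore approximate. The value of -32.2 rests on Cort_CON replicate 36, at 242 where the other 4 nondiabetic mice had 131 to 145. Without that mouse the difference was -11.3 (permutation p = 0.264). The disease label goes with glucose itself, with 254 the lowest diabetic and 242 the highest nondiabetic value in Cort_CON. Splitting Cort_CON by this label therefore in part sets the glucose differences of the subsets. Their p-values cannot decide whether the diet response differed between the waters.

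Insulin was 17.8 ± 11.7 in Cort_ATGLi and 31.7 ± 10.6 in Cort_CON (SD, n = 14 each), against 1.17 ± 0.514 in EtOH_ATGLi and 2.42 ± 0.705 in EtOH_CON (SD, n = 10 each). The difference of the 2 diet differences was -12.6 (SE 4.23, permutation test, p = 0.0161, adjusted p = 0.0161). On the log2 scale, where the comparison is of ratios, it was 0.018 (SE 0.441, permutation p = 0.969), so the call held for differences and not for ratios. It also did not pass with the nondiabetic Cort_CON mice alone (-6.70, permutation p = 0.258). Insulin values in Cort_CON bunched near their maximum of 39.8, and no label says whether the assay had a ceiling there. The permutation pools residuals of all groups, whereas the SDs were 11.7 and 10.6 on corticosterone water and 0.514 and 0.705 on vehicle water. The permutation p-values for insulin differences are therefore approximate.

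**Figure D1:**
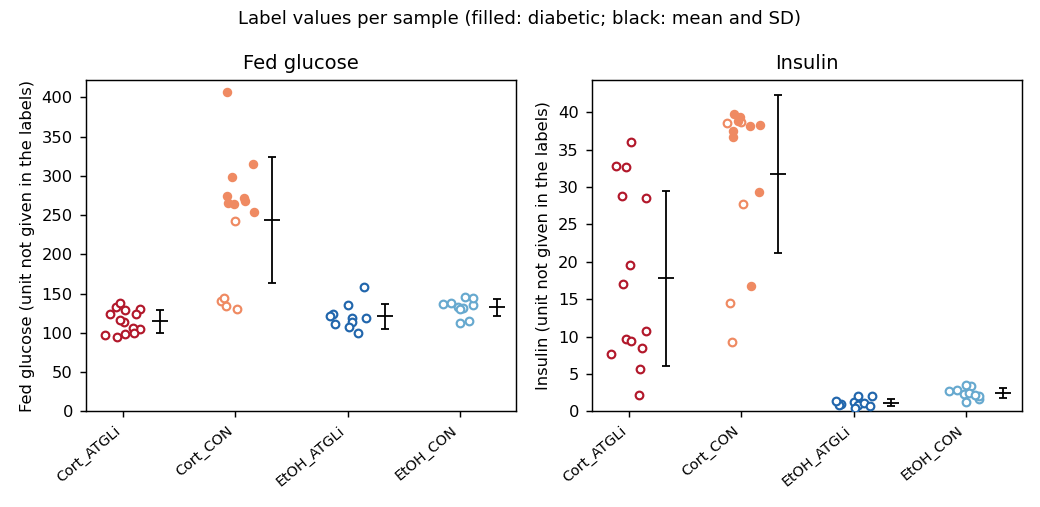
Fed glucose (left) and insulin (right) of each mouse, on linear axes in the unit of the labels, for Cort_ATGLi, Cort_CON, EtOH_ATGLi and EtOH_CON. Circles are mice, filled where labelled diabetic, and black bars are mean and SD; Cort_ATGLi glucose stays between 95 and 138 while Cort_CON spreads from 131 to 407.

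Muscle expression showed a significant interaction in few genes, although corticosterone against vehicle called 30% of genes on atglistatin and 38.4% on control chow. Of 12592 genes tested, 5 passed an adjusted p of 0.05 (0.0397%; edgeR quasi-likelihood test, Benjamini-Hochberg adjustment). The estimate was above 0 for 3 of them, Sparc, Lonrf1 and Itgb5 (0.0238%), and below 0 for 2, Fkbp5 and Tmem52 (0.0159%). Without adjustment, 695 genes had a p under 0.05 (5.52%), 384 above 0 (3.05%) and 311 below 0 (2.47%). DESeq2 called 17 genes, all 5 of these among them, and split them into 4 above 0 and 13 below. The count was 0 with the 9 diabetic Cort_CON mice alone (646 genes at an unadjusted p under 0.05), 8 with the 5 nondiabetic ones alone, and 2 without EtOH_ATGLi replicate 14.

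The inhibitor's effect itself was called in more genes on corticosterone water than on vehicle water, by counts that moved much with the processing. Cort_ATGLi differed from Cort_CON in 201 genes (1.6%), with 84 higher (0.667%) and 117 lower (0.929%). EtOH_ATGLi differed from EtOH_CON in 3 genes (0.0238%), Fkbp5, Sparc and Mepce, the last an enzyme that caps 7SK RNA. The 201 fell to 39 with the diabetic Cort_CON mice alone and ran from 125 (without Cort_ATGLi replicate 23) to 354 (without Cort_CON replicate 45) with 1 library left out. The 3 became 22 on halved counts, 30 with limma voom and 38 with DESeq2, and ran from 1 to 21 (without EtOH_ATGLi replicate 12) with 1 library left out. The 2 water groups had unequal sample numbers, 14 against 14 and 10 against 10. Counts of calls on each water do not test the difference between them, which is what the interaction does. The 201 and the 3 had 0 genes in common, 0% of each, where the 201 were 1.6% of all genes. With only 3 genes called in vehicle mice, this 0 does not show that the inhibitor acted on different genes on the 2 waters. Among the 84 genes called higher in corticosterone mice, 70 (83.33%) also had an estimate above 0 in vehicle mice, with medians of 0.37 and 0.15 on the log2 scale. Of the 117 called lower, 30 (25.64%) had an estimate above 0 in vehicle mice, and the medians were -0.59 and -0.12. Over all genes 49.13% had an estimate above 0 in vehicle mice. Most of the called genes thus had an estimate of the same sign without corticosterone. Since these genes were picked on their estimates in corticosterone mice, the larger medians there are in part set by that choice. Across the 12592 genes the 2 responses had a Pearson r of 0.184 and a Spearman rho of 0.192. These are descriptions across genes, which are not independent replicates, and the 2 responses share no library.

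The low number of interaction calls can be read against the precision. The median SE of the interaction was 0.18 log2 units, and for 10469 genes (83.14%) the 95% interval lay wholly within a 2-fold difference in either direction. For genes with a mean over 100 CPM this share was 98.39%, and for genes with a mean under 1 CPM it was 14.68%. In low genes, a 2-fold difference between the 2 responses was thus mostly not detectable at this depth and number of mice.

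**Figure D2:**
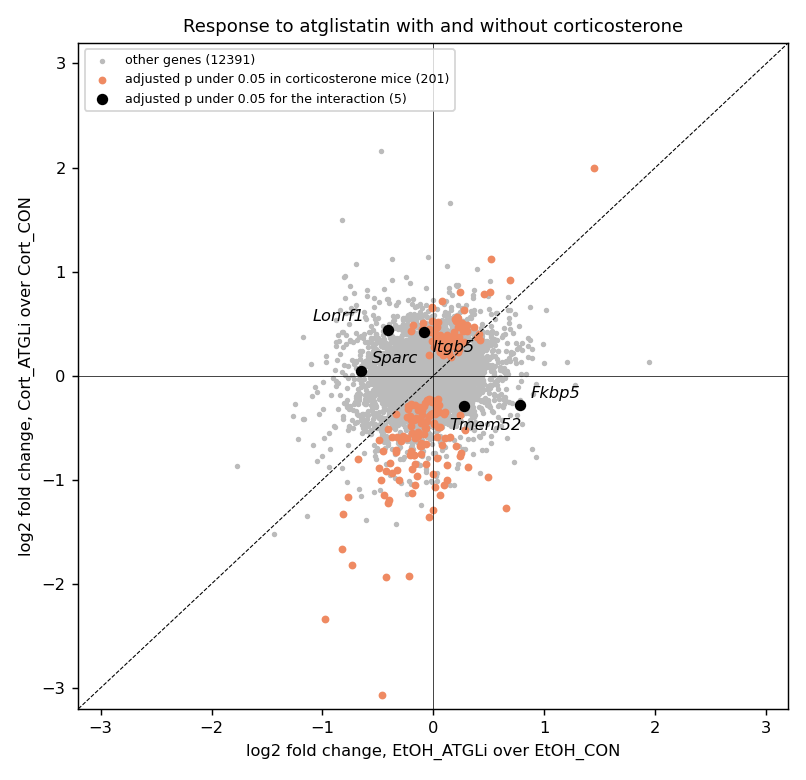
Log2 fold change of each of the 12592 genes for EtOH_ATGLi over EtOH_CON (x axis) and for Cort_ATGLi over Cort_CON (y axis); on the dashed line the 2 responses are equal. Orange marks the 201 genes called in corticosterone mice and black the 5 that passed the interaction, of which Lonrf1, Itgb5 and Sparc lie above the line and Tmem52 and Fkbp5 below it.

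The gene with the largest called interaction by size was Fkbp5, which encodes a co-chaperone that is induced by the glucocorticoid receptor and lowers the receptor's affinity for hormone (ENSMUSG00000024222, chromosome 17, 28399094 to 28517527, minus strand, GRCm38). Its lowest, median and highest levels were 184, 273 and 361 CPM in Cort_ATGLi, 227, 326 and 456 CPM in Cort_CON, 29.2, 49.1 and 77.3 CPM in EtOH_ATGLi, and 18.8, 27.3 and 37.9 CPM in EtOH_CON. Every corticosterone library lay above every vehicle library, and within each water the diet groups overlapped. In vehicle mice Fkbp5 was higher on atglistatin, with a mean of 49.4 ± 15.5 CPM in EtOH_ATGLi and 28.7 ± 6.97 CPM in EtOH_CON (SD, n = 10 each; log2 fold change 0.78, adjusted p = 0.0219 by edgeR). All 10 EtOH_ATGLi libraries were above the EtOH_CON median and 7 were above the highest EtOH_CON library. In corticosterone mice the mean was 273 ± 50.2 CPM in Cort_ATGLi and 332 ± 75.5 CPM in Cort_CON (SD, n = 14 each; log2 fold change -0.28, adjusted p = 0.322 by edgeR). The interaction was -1.07 (SE 0.198, 95% interval -1.46 to -0.67, adjusted p = 0.0121 by edgeR). Put the other way, corticosterone raised Fkbp5 by 2.47 log2 units on atglistatin and by 3.53 log2 units on control chow. Within Cort_CON, Fkbp5 averaged 322 ± 64.2 CPM in the 9 diabetic and 351 ± 97.9 CPM in the 5 nondiabetic mice.

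A second gene below 0 was Tmem52, which encodes a transmembrane protein (ENSMUSG00000023153, chromosome 4, 155469114 to 155470858, plus strand). Its lowest, median and highest levels were 90.1, 125 and 147 CPM in Cort_ATGLi, 138, 153 and 172 CPM in Cort_CON, 37, 59.1 and 68.8 CPM in EtOH_ATGLi, and 31.2, 47.1 and 60.8 CPM in EtOH_CON. Corticosterone libraries were all above vehicle libraries, and 10 of 14 Cort_ATGLi libraries were below the lowest Cort_CON library. Tmem52 fell on atglistatin in corticosterone mice (log2 fold change -0.29, adjusted p = 0.0304 by edgeR) and had an estimate of 0.27 in vehicle mice that did not pass (adjusted p = 0.417). The interaction was -0.57 (SE 0.121, 95% interval -0.81 to -0.33, adjusted p = 0.0427 by edgeR). This was the least stable of the 5 calls: it was lost in 26 of 48 fits that each left out 1 library, with an adjusted p of up to 0.104.

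Sparc encodes a secreted glycoprotein that binds collagen and takes part in matrix assembly (ENSMUSG00000018593, chromosome 11, 55394500 to 55423183, minus strand). Its lowest, median and highest levels were 187, 239 and 278 CPM in Cort_ATGLi, 149, 231 and 280 CPM in Cort_CON, 170, 232 and 276 CPM in EtOH_ATGLi, and 225, 358 and 440 CPM in EtOH_CON. EtOH_CON was the high group, and the 3 others had like medians and overlapping ranges. Sparc fell on atglistatin in vehicle mice, to a mean of 225 ± 35.7 CPM in EtOH_ATGLi against 354 ± 63.7 CPM in EtOH_CON (SD, n = 10 each; log2 fold change -0.65, adjusted p = 0.000329 by edgeR), with 10 of 10 libraries below the EtOH_CON median. In corticosterone mice its mean was 237 ± 25.2 CPM in Cort_ATGLi and 229 ± 39.4 CPM in Cort_CON (SD, n = 14 each; log2 fold change 0.05, adjusted p = 0.891 by edgeR). Corticosterone lowered Sparc on control chow (log2 fold change -0.63, adjusted p = 1.44e-07), and on atglistatin the estimate was 0.07 (adjusted p = 0.604). Either agent given alone thus went with a fall of about the same size, and the 2 together did not go with a further one. Both falls are measured against the same EtOH_CON libraries. The interaction was 0.70 (SE 0.132, 95% interval 0.44 to 0.97, adjusted p = 0.0121 by edgeR). Without EtOH_CON replicate 1, which had the lowest Sparc level of its group, it was 0.76.

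The largest positive interaction among the 5 called genes was that of Lonrf1, which encodes a protein with RING finger and LON domains (ENSMUSG00000039633, chromosome 8, 36216064 to 36249516, minus strand). Its lowest, median and highest levels were 9.21, 11.8 and 19.1 CPM in Cort_ATGLi, 7.75, 8.6 and 18.2 CPM in Cort_CON, 10.5, 14.3 and 16.7 CPM in EtOH_ATGLi, and 15.6, 18.7 and 22.5 CPM in EtOH_CON. All 14 Cort_ATGLi libraries were above the Cort_CON median, whereas all 10 EtOH_ATGLi libraries were below the EtOH_CON median. Lonrf1 rose on atglistatin in corticosterone mice (log2 fold change 0.44, adjusted p = 0.0231 by edgeR), and its estimate in vehicle mice was -0.41 (adjusted p = 0.311). The interaction was 0.84 (SE 0.167, 95% interval 0.51 to 1.18, adjusted p = 0.0176 by edgeR). Corticosterone lowered Lonrf1 by 0.95 log2 units on control chow (log2 fold change -0.95, adjusted p = 1.62e-09), and on atglistatin the estimate was -0.11 (adjusted p = 0.537).

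Itgb5 encodes integrin β5, which pairs with integrin αv to bind matrix proteins such as vitronectin (ENSMUSG00000022817, chromosome 16, 33829665 to 33949338, plus strand). Its lowest, median and highest levels were 24.5, 32.6 and 36.3 CPM in Cort_ATGLi, 18.9, 24 and 29.1 CPM in Cort_CON, 26, 31 and 35.3 CPM in EtOH_ATGLi, and 26.8, 32.4 and 38.9 CPM in EtOH_CON. Here Cort_CON was the low group, and 11 of 14 Cort_ATGLi libraries were above the highest Cort_CON library. Itgb5 rose on atglistatin in corticosterone mice, to 31.9 ± 3.15 CPM in Cort_ATGLi against 23.9 ± 3.09 CPM in Cort_CON (SD, n = 14 each; log2 fold change 0.42, adjusted p = 0.00013 by edgeR). In vehicle mice the mean was 30.9 ± 2.81 CPM in EtOH_ATGLi and 32.7 ± 3.54 CPM in EtOH_CON (SD, n = 10 each; log2 fold change -0.085, adjusted p = 0.902). The interaction was 0.50 (SE 0.0998, 95% interval 0.30 to 0.70, adjusted p = 0.0176 by edgeR). Within Cort_CON, Itgb5 averaged 25.0 ± 2.89 CPM in the 9 diabetic and 21.8 ± 2.48 CPM in the 5 nondiabetic mice. Without EtOH_ATGLi replicate 14, Itgb5 and Lonrf1 each had an adjusted p of 0.0507.

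**Figure D3:**
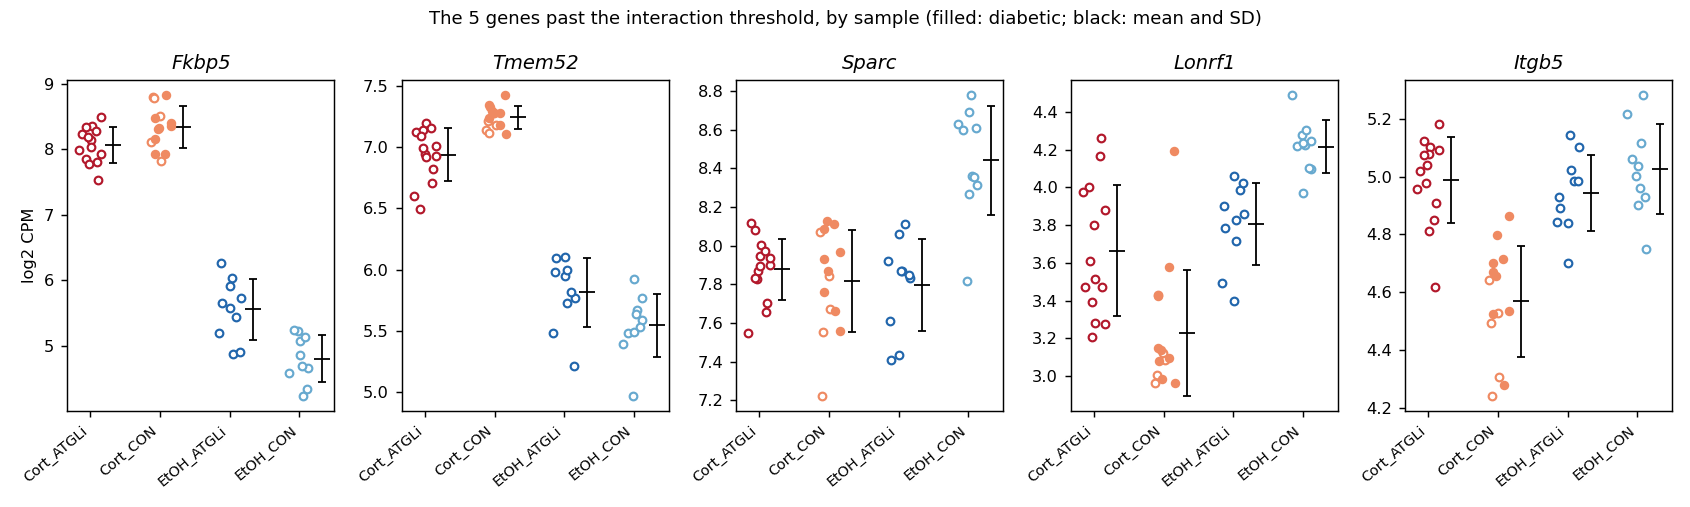
Log2 CPM of the 5 genes that passed the interaction, in each of the 48 libraries, for Cort_ATGLi, Cort_CON, EtOH_ATGLi and EtOH_CON. Filled circles are mice labelled diabetic, black bars are mean and SD, and each panel has its own axis; EtOH_CON is the high group for Sparc and Cort_CON the low group for Itgb5.

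With the diabetic Cort_CON mice alone (n = 9), the 5 interactions kept their sign and were 0.63 for Sparc, 0.77 for Lonrf1, 0.43 for Itgb5, -1.02 for Fkbp5 and -0.60 for Tmem52, and adjusted p by edgeR ran from 0.0511 to 0.187. With the nondiabetic Cort_CON mice alone (n = 5), 4 of the 5 passed, and Tmem52 did not (-0.51, adjusted p = 0.291).

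The window around the transcription start, from 250 bases before it to 50 after, was in the RefSeq promoter table (GRCm38.p6) for 3 of the 5 genes, Sparc, Fkbp5 and Itgb5. Sparc and Fkbp5 are shown as examples that responded to corticosterone on control chow in opposite directions. Itgb5, which was also lower in Cort_CON than in EtOH_CON, is not shown. Capitals mark the half-site of the glucocorticoid response element, AGAACA or its reverse complement TGTTCT, searched on both strands. The Sparc window is chr11:55420031-55420330 and the Fkbp5 window chr17:28486100-28486399, both on the minus strand and within the gene spans given above.
Sparc: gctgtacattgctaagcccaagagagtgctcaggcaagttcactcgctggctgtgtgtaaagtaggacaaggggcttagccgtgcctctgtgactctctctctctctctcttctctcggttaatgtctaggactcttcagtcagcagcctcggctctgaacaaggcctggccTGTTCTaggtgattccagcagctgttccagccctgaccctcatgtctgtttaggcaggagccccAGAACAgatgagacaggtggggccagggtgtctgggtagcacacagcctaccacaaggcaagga
Fkbp5: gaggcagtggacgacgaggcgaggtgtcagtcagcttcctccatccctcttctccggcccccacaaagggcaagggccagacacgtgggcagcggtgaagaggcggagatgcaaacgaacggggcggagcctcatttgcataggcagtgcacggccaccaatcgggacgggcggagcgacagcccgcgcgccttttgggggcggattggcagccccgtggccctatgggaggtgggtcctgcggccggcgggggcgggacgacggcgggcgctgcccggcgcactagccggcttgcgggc
The Sparc window held 2 half-sites, at -78 and -14 bases from the RefSeq start, and the windows of Fkbp5 and Itgb5 held 0. The full element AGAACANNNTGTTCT was in none of the 3 windows. Among 32851 RefSeq promoter windows, 19% held a half-site, 2.54% held 2 or more and 0.00913% held the full element. A letter match of this kind describes the sequence and does not show a site in use.

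The list of glucocorticoid receptor target genes leaned below 0, and its members other than Fkbp5 did not pass the test by edgeR. The counts of this list include Fkbp5. Of 29 measured genes on this list, 1 passed, Fkbp5, and 26 had an interaction estimate below 0, with a median of -0.30, where the median over all genes was -0.001 and 49.7% of genes were above 0. The median log2 response of these 29 genes to corticosterone was 1.23 on atglistatin and 1.76 on control chow. These 2 responses share no library with each other, and both share libraries with the interaction. At an unadjusted p under 0.05, 5 members were below 0 and 0 above: Fkbp5, Cdkn1a, Glul, Foxo1 and Pdk4. Over all genes, 2.47% were below 0 and 3.05% above at that level. Cdkn1a, a cell cycle inhibitor, averaged 196 ± 88.2 CPM in Cort_ATGLi, 384 ± 188 CPM in Cort_CON, 31.3 ± 13.3 CPM in EtOH_ATGLi and 22.2 ± 6.02 CPM in EtOH_CON (SD, n = 14, 14, 10 and 10), an interaction of -1.47 (SE 0.386, adjusted p = 0.297 by edgeR). DESeq2 gave this gene an adjusted p of 0.0382. Foxo1, a transcription factor active in fasting and atrophy, had an interaction of -0.65 (adjusted p = 0.663). Glul, which makes glutamine, averaged 852 ± 227 CPM in Cort_ATGLi, 1092 ± 354 CPM in Cort_CON, 288 ± 68.0 CPM in EtOH_ATGLi and 211 ± 49.6 CPM in EtOH_CON, with an interaction of -0.81 (SE 0.219, adjusted p = 0.297). Glul overlaps the counted gene Teddm2 on the other strand. Since the strand setting of the counting is not given, it is not known whether reads of Teddm2 entered the Glul count. Tsc22d3, which encodes the glucocorticoid-induced leucine zipper, had an interaction of -0.18 (95% interval -0.43 to 0.07, adjusted p = 0.996). Each of these genes was higher with corticosterone than with vehicle on both diets at an adjusted p under 0.05.

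The genes that mark muscle atrophy had no called interaction. Fbxo32 and Trim63 encode the ubiquitin ligases atrogin-1 and MuRF1, and Mstn encodes the growth inhibitor myostatin. Fbxo32 averaged 783 ± 181 CPM in Cort_ATGLi, 653 ± 299 CPM in Cort_CON, 339 ± 80.4 CPM in EtOH_ATGLi and 320 ± 54.5 CPM in EtOH_CON, an interaction of 0.18 (95% interval -0.30 to 0.66, adjusted p = 0.999 by edgeR). Trim63 had an interaction of -0.099 (95% interval -0.74 to 0.55) and Mstn one of -0.085 (95% interval -0.47 to 0.30). All 3 were higher with corticosterone than with vehicle on either diet, by 1.21 and 1.03 log2 units for Fbxo32, 1.88 and 1.97 for Trim63, and 0.55 and 0.63 for Mstn (on atglistatin and on control chow in that order). The intervals of Fbxo32, Trim63 and Mstn lie within a 2-fold difference in either direction. Of 22 measured genes on the atrophy list, 0 passed by edgeR, and the median interaction was 0.014. At an unadjusted p under 0.05, 2 were above 0 (Smad3 and Acvr2b), beside 3.05% of all genes. By DESeq2 none of the list's genes was called either.

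Genes of lipid droplets and lipolysis, the pathway the drug acts on, also had 0 calls by edgeR. The same held for the list of fatty acid uptake, oxidation and PPAR target genes. Pnpla2, the drug's target, averaged 329 ± 103 CPM in Cort_ATGLi, 321 ± 133 CPM in Cort_CON, 169 ± 23.7 CPM in EtOH_ATGLi and 154 ± 22.3 CPM in EtOH_CON, an interaction of -0.097 (95% interval -0.53 to 0.33, adjusted p = 0.999 by edgeR). Pnpla2 mRNA does not report how far the enzyme was inhibited. Pdk4, which restrains glucose oxidation, had 140 ± 75.0 CPM in Cort_ATGLi, 192 ± 113 CPM in Cort_CON, 49.7 ± 23.7 CPM in EtOH_ATGLi and 28.6 ± 18.8 CPM in EtOH_CON. Its interaction was -1.26 (SE 0.534, 95% interval -2.33 to -0.18, adjusted p = 0.861), a wide interval that goes with the spread between mice of each group. Plin2, a lipid droplet coat protein, and Angptl4, a secreted inhibitor of lipoprotein lipase, had interactions of 0.22 (95% interval -0.19 to 0.63) and -0.21 (95% interval -1.33 to 0.91). At an unadjusted p under 0.05, 4 of 35 fatty acid uptake, oxidation and PPAR target genes were below 0 (Acot1, Pdk4, Mlycd and Crat) and 0 above. Over all genes 2.47% were below 0 and 3.05% above at that level. Pdk4 was also counted among the glucocorticoid receptor targets, so the 2 lists are not independent. Of 23 lipid droplet genes, 4 were below 0 (Plin4, Plin5, Agpat2 and Mgat1, the last a glycosyltransferase of the Golgi rather than a lipid enzyme) and 0 above, beside the same shares of all genes. List medians were -0.08 and -0.07.

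Plin4, a perilipin that coats lipid droplets and is abundant in muscle, came closest of these. It was chosen for description after its values were seen, as were all further genes named as having the smallest p on a list. Plin4 averaged 374 ± 61.2 CPM in Cort_ATGLi, 420 ± 80.9 CPM in Cort_CON, 132 ± 25.3 CPM in EtOH_ATGLi and 93.2 ± 15.2 CPM in EtOH_CON, with an interaction of -0.67 (SE 0.147, adjusted p = 0.0545 by edgeR). By DESeq2 its adjusted p was 0.0109. Plin4, Crat and Agpat2 each overlap a counted gene on the other strand (Hdgfl2, Dolpp1 and Egfl7 in that order), with the same limit as for Glul. Plin5, which ties lipid droplets to mitochondria, averaged 51.8 ± 13 CPM in Cort_ATGLi, 84.8 ± 48.3 CPM in Cort_CON, 18.1 ± 5.63 CPM in EtOH_ATGLi and 15 ± 3.56 CPM in EtOH_CON, with an interaction of -0.98 (SE 0.321, adjusted p = 0.65).

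**Figure D4:**
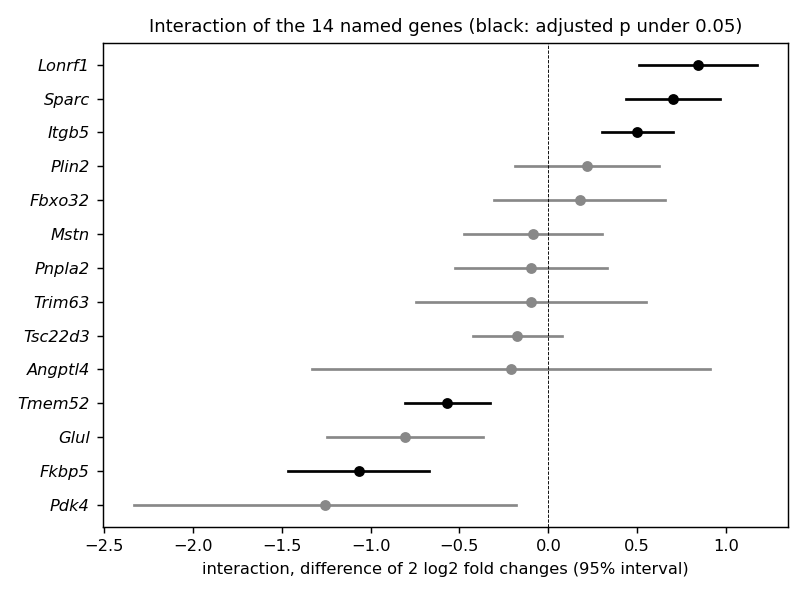
Interaction of the 14 genes named by rule, as the difference of 2 log2 fold changes (x axis), with 95% intervals. The 5 black genes passed the adjusted threshold; among the grey ones Glul and Pdk4 have intervals below 0 that do not survive adjustment over 12592 genes, and that of Angptl4 spans -1.33 to 0.91.

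Extracellular matrix genes leaned above 0. Of 28 measured fibrillar collagens and matrix proteins, 1 passed, Sparc, 8 were above 0 at an unadjusted p under 0.05 and 0 below, and 24 had an estimate above 0. Over all genes 3.05% were above 0 at that level and 49.7% of estimates were above 0. The 4 below 0 were Fn1, Dcn, Fmod and Fbln1. The list's median interaction was 0.35, and its median log2 response to atglistatin was -0.17 in corticosterone mice and -0.46 in vehicle mice. The summed level of the 28 genes ran from 884.2 to 1117 CPM in Cort_ATGLi, from 816.9 to 1376 CPM in Cort_CON, from 1312 to 2341 CPM in EtOH_ATGLi and from 1950 to 2724 CPM in EtOH_CON. Neither diet difference in these sums separated the groups. Col6a1, a chain of the type VI collagen of the muscle fibre surround, averaged 4.35 ± 1.00 CPM in Cort_ATGLi, 3.94 ± 1.16 CPM in Cort_CON, 11.5 ± 2.53 CPM in EtOH_ATGLi and 16.3 ± 3.92 CPM in EtOH_CON, an interaction of 0.64 (SE 0.197, adjusted p = 0.505 by edgeR). Col6a3, another chain of the same collagen, had an interaction of 0.70 (adjusted p = 0.663). Col1a1, the main chain of type I collagen, averaged 14.5 ± 4.57 CPM in Cort_ATGLi, 19.3 ± 8.82 CPM in Cort_CON, 105 ± 38.1 CPM in EtOH_ATGLi and 238 ± 81.6 CPM in EtOH_CON, an interaction of 0.77 (SE 0.324, adjusted p = 0.858). Its response to atglistatin in vehicle mice was -1.18 log2 units (adjusted p = 0.0514).

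The list of collagen-processing and matrix-degrading enzymes gave 0 calls by edgeR and by DESeq2, and its median was 0.27. At an unadjusted p under 0.05, 6 of 20 genes were above 0 and 0 below, where 3.05% of all genes were above 0. Besides collagen enzymes the list holds Mmp2, Mmp9, Mmp14 and Ctsk, which degrade matrix, and the inhibitors Timp2 and Timp3. P4ha1, a subunit of the collagen prolyl hydroxylase, had an interaction of 0.44 (SE 0.130, adjusted p = 0.457 by edgeR), and Serpinh1, the collagen chaperone Hsp47, one of 0.56 (SE 0.179, adjusted p = 0.533). In the list of basement membrane and matrix receptor genes, 17 of 20 estimates were above 0, with a median of 0.18, against 49.7% of all genes. Members of one list can move together because they come from the same cells, so these counts are not independent.

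Fibro-adipogenic progenitors make much of the muscle matrix, and 3 of their 11 markers (Dcn, Lum and Mfap5) are also on the matrix list. The 11 of 11 measured markers summed to 1022 to 1323 CPM in Cort_ATGLi (median 1157), 868.9 to 1702 CPM in Cort_CON (median 1157), 1343 to 2254 CPM in EtOH_ATGLi (median 1595) and 1458 to 2288 CPM in EtOH_CON (median 1740), and 0 of them had a group mean of 0. Their median interaction was 0.24, 8 of 11 were above 0, 2 of them at an unadjusted p under 0.05, and 0 were called by edgeR. Over all genes 49.7% of estimates were above 0, and 3.05% of genes were above 0 at that level. In bulk muscle, fewer cells of a type and less RNA per cell cannot be told apart, and the part of these cells in the matrix values was not tested. The 9 tenocyte markers, genes of tendon cells that also make matrix, had a median interaction of -0.15 with 7 of 9 below 0. Median interactions of the other cell type lists were 0.49 for 6 MHC class II markers (6 of 6 above 0), 0.42 for 8 Schwann cell markers, 0.30 for 9 adipocyte markers, 0.15 for 12 macrophage markers, 0.14 for 10 endothelial markers, 0.08 for 8 smooth muscle and pericyte markers and -0.15 for 12 myofibre markers, with 0 called in each by edgeR. The erythroid (5), neutrophil (3) and lymphocyte (2) lists had medians of -0.19, 0.86 and 0.09 in that order, from few measured markers. The 6 MHC class II markers were low in corticosterone mice. Their sums had medians of 9.457 CPM in Cort_ATGLi and 9.545 CPM in Cort_CON, against 105.8 CPM in EtOH_ATGLi and 132 CPM in EtOH_CON. The value of 0.49 for this list thus rests in part on low counts.

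**Figure D5:**
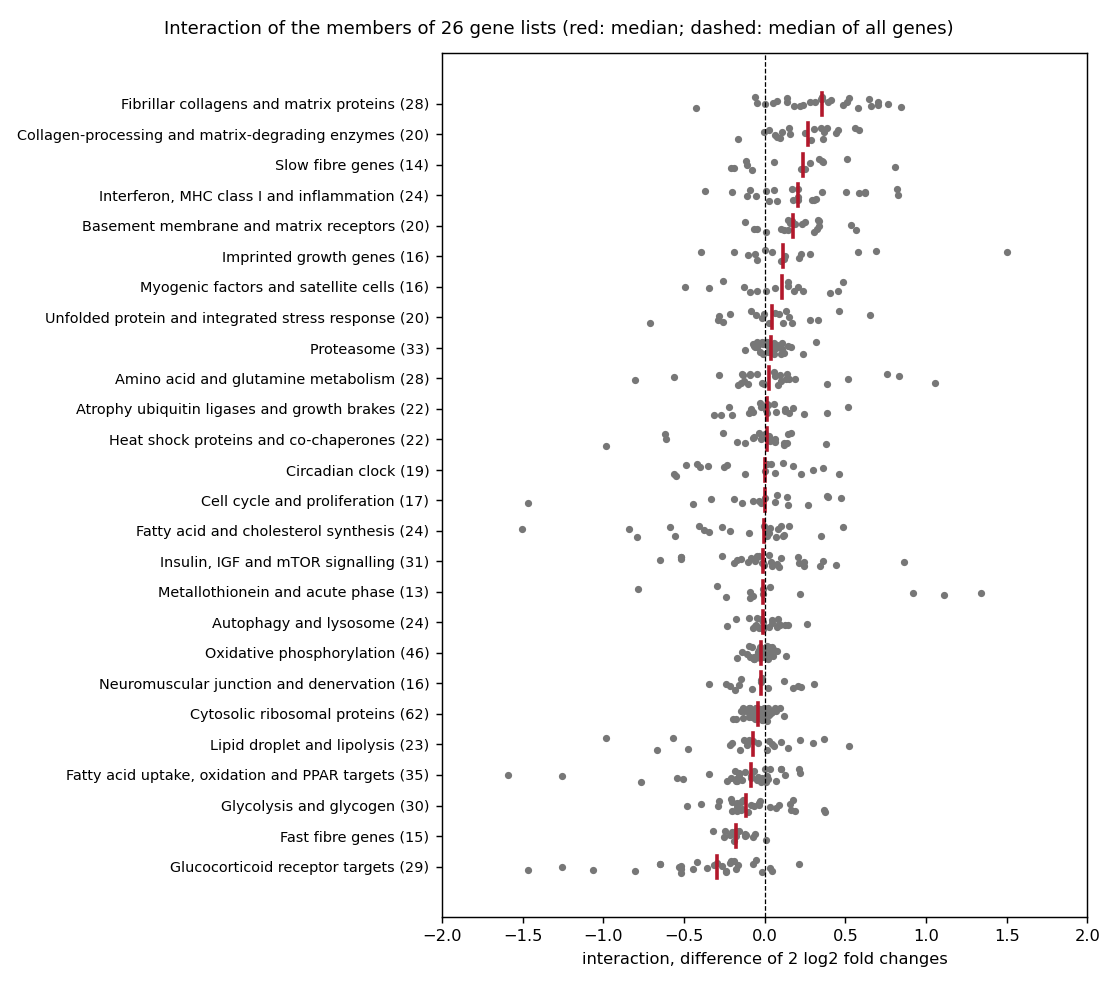
Interaction of each measured member of 26 pathway lists (grey points; number of members in brackets), as the difference of 2 log2 fold changes. Red bars are list medians, from 0.35 for fibrillar collagens and matrix proteins at the top to -0.30 for glucocorticoid receptor targets at the bottom, and the dashed line is the median of all genes, -0.001.

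The large oxidative phosphorylation, ribosomal and proteasome families sat close to 0. The 46 oxidative phosphorylation genes had interactions between -0.17 and 0.13 with a median of -0.02, and the 62 cytosolic ribosomal protein genes between -0.20 and 0.12 with a median of -0.04. In both families 0 genes had an unadjusted p under 0.05 by edgeR, where 5.52% of all genes did. Of the 33 proteasome genes 2 were above 0 at that level, beside 3.05% of all genes, and the proteasome median was 0.04. Fast fibre genes leaned below 0, with 14 of 15 estimates below 0 and a median of -0.18, where 49.7% of all genes were above 0. All 15 had means over 100 CPM, and all tested genes at that level had a median interaction of -0.05. Of 12 myofibre markers, which share Myh1, Myh4, Tnnt3, Mylpf and Actn3 with this list, 11 were below 0 (median -0.15). Of 14 slow fibre genes 9 were above 0 (median 0.24). In the fast fibre list 1 gene, Actn3, had an unadjusted p under 0.05, beside 2.47% of all genes below 0 at that level. By edgeR 0 fast fibre genes were called. Actn3, the fast fibre α-actinin, had an interaction of -0.32 (SE 0.112, adjusted p = 0.663 by edgeR).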

How the data were processed

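The authors deposited raw counts per gene (14125 genes, 48 libraries; QuantSeq, 50 bp forward reads, per the labels) and a second deposited table of normalized values, a signal per gene equal to the count divided by a size factor, which was not tested. The submitters' processing notes name GRCm38, R 3.6.1 and DESeq2 1.24.0. For the aligner, the counter, its strand setting and the annotation, nothing is given in the sources used. Genes were filtered with filterByExpr (minimum count 10, minimum total 15), which left out 1533, scaled by TMM, and fitted as 4 groups in 1 model with edgeR 4.0.16 (robust quasi-likelihood test, two-sided, R 4.3.3). P-values were adjusted by Benjamini-Hochberg over all 12592 genes, and adjusted p means this unless a tool is named. Alternatives used DESeq2 1.42.0 and limma 3.58.1. The procedure was tested on simulated data. Depth of 10453888 to 24034481 counts per library limits genes under 1 CPM, and reads without molecular identifiers are not independent molecules. All pairs of libraries within a group differed by more than sampling noise (lowest chi-square per degree of freedom 7.87 over 272 pairs). Glucose and insulin are label values, tested by permuting residuals of the additive model. Gene positions are from the GENCODE annotation of GRCm38.

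Named genes were up to 12 in each direction with the smallest p among those called whose mean reached 5 CPM, and 10 genes given whatever their values (Angptl4, Fbxo32, Fkbp5, Glul, Mstn, Pdk4, Plin2, Pnpla2, Trim63 and Tsc22d3). A further part, for lists with 2 or more called members, applied to 0 lists. The genes, the 38 lists and the tests were chosen with earlier results of these data known. Lists are described by counts and medians and were not tested.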

Additional observations from a re-analysis of the deposited data

Results flagged for a closer look

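The response to atglistatin differed between corticosterone and vehicle mice, by the interaction test itself, in 5 genes. The differences in log2 response, corticosterone minus vehicle mice, were 0.70 for Sparc, 0.84 for Lonrf1, 0.50 for Itgb5, -1.07 for Fkbp5 and -0.57 for Tmem52. It also differed for fed glucose (-117.2) and insulin (-12.6), in the units of the labels. For insulin this held for differences and not for ratios, as the log2 interaction was 0.018 (permutation p = 0.969).

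In Sparc, EtOH_CON replicate 1 stood apart from its group, at 7.82 log2 CPM where the next lowest library had 8.27, a gap of 0.467 of the group's range. This was 1 of 32 groups of values examined in this way, all from vehicle mice, and chance marks about 1 in 20. The corticosterone groups (n = 14) were not examined in this way, and gaps occur there too. Cort_ATGLi replicate 41 had 666 CPM of Pnpla2 (next highest library 349) and 26.9 CPM of Plin2 (next 13.1). Cort_CON replicate 45 had 18.2 CPM of Lonrf1 (next 11.9). The Sparc interaction was 0.76 without EtOH_CON replicate 1.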

How the results depend on the processing

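The count of 5 interaction genes was the same with RLE size factors, without the filter, on halved counts and with limma voom. It was 17 with DESeq2 (4 above 0 and 13 below), 0 with diabetic Cort_CON mice alone, 8 with nondiabetic ones alone, and 8 without EtOH_CON replicate 1, EtOH_ATGLi replicate 13 and Cort_ATGLi replicate 41 together, an alternative chosen after seeing the data. Leaving out 1 library at a time gave 2 to 7. Genes called for atglistatin in corticosterone mice (201) fell to 39 with diabetic Cort_CON mice alone, and ran from 125 (without Cort_ATGLi replicate 23) to 354 (without Cort_CON replicate 45). In vehicle mice the 3 called genes became 22 on halved counts, 19 with nondiabetic Cort_CON mice alone, 30 with limma voom, 38 with DESeq2 and 5 without the 3 libraries, and ran from 1 to 21 (without EtOH_ATGLi replicate 12) with 1 library left out, so this count is the least settled. The cause was not tested. The insulin interaction reversed to 0.018 on the log2 scale, and was -6.70 and not significant with nondiabetic Cort_CON mice alone. The glucose interaction with nondiabetic Cort_CON mice alone was -11.3 without replicate 36, a setting chosen after seeing the data. With 1 mouse left out, insulin ranged from -14.4 to -11.4 and glucose from -125.9 to -104.6.

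Of 125 tested alternative values for the 14 named genes, 116 kept their direction and side of the threshold. On the linear CPM scale, which has no test, 14 of 14 had the same sign. The 6 that lost the call are the 5 genes with diabetic Cort_CON mice alone and Tmem52 with nondiabetic ones alone, and 3 small uncalled values moved past 0 (Trim63 and Mstn). With 1 library left out, Sparc and Fkbp5 passed in 48 of 48 fits, Lonrf1 and Itgb5 in 47 and Tmem52 in 22, where the interactions ranged from 0.66 to 0.76, from -1.13 to -0.97, from 0.79 to 0.96, from 0.48 to 0.54 and from -0.62 to -0.51 in that order. Among genes not called, Plin2 was 0.034 without Cort_ATGLi replicate 41, Angptl4 was 0.17 without EtOH_ATGLi replicate 14, and Trim63 and Pnpla2 were each 0.047 without Cort_CON replicate 45.

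Some title numbers occur in 2 groups, but the 6 pairs of libraries that share one had correlations of their deviations between -0.0435 and 0.148, with a median of -0.00193 for other pairs, and Cort_CON shares no number. The samples were not treated as paired, and 6 pairs cannot settle whether the numbers pair them. With the number as a replicate block in limma voom, the consensus correlation within blocks was 0.107. In that fit 6 interaction genes passed (Mepce was added), 173 genes in corticosterone mice and 40 in vehicle mice.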

Other observations

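Among genes outside the rule for named genes, chosen after their values were seen, Mepce had an interaction of -0.48 (SE 0.105, adjusted p = 0.0545 by edgeR). It averaged 12.9 ± 1.61 CPM in Cort_ATGLi, 13.5 ± 1.46 CPM in Cort_CON, 14.2 ± 0.593 CPM in EtOH_ATGLi and 10.7 ± 1.38 CPM in EtOH_CON (SD, n = 14, 14, 10 and 10), so that EtOH_CON was the low group. Pnkd averaged 18.3 ± 2.72 CPM in Cort_ATGLi, 27.5 ± 6.36 CPM in Cort_CON, 16.5 ± 2.22 CPM in EtOH_ATGLi and 16.1 ± 1.98 CPM in EtOH_CON, so that Cort_CON was the high group, with an interaction of -0.62 (SE 0.145, adjusted p = 0.111 by edgeR). With the nondiabetic Cort_CON mice alone, Pnkd passed, at an interaction of -0.87 (adjusted p = 0.00172). Pnkd overlaps the counted gene Tmbim1 on the other strand and Gm29358 on its own, so its reads may be shared with them.

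Scd1, the desaturase that makes monounsaturated fatty acids, averaged 36.4 ± 26.5 CPM in Cort_ATGLi, 140 ± 83.1 CPM in Cort_CON, 46.9 ± 15.9 CPM in EtOH_ATGLi and 63.4 ± 46 CPM in EtOH_CON. Scd1 fell on atglistatin in corticosterone mice (log2 fold change -1.94, adjusted p = 0.00128 by edgeR), while in vehicle mice the estimate was -0.43 (adjusted p = 0.913). The difference between these 2 responses, -1.51 (SE 0.539, adjusted p = 0.698), did not pass. The clock gene Nfil3, a transcriptional repressor, also fell in corticosterone mice (log2 fold change -0.68, adjusted p = 0.00128 by edgeR), with 42.1 ± 8.89 CPM in Cort_ATGLi and 67.4 ± 21.0 CPM in Cort_CON, and its interaction of -0.56 (adjusted p = 0.698) did not pass. Cfd, the adipocyte serine protease adipsin, had an interaction of 1.77 (SE 0.479, adjusted p = 0.297 by edgeR), with 73.8 ± 48.8 CPM in Cort_ATGLi, 35.3 ± 14.3 CPM in Cort_CON, 94.8 ± 54.8 CPM in EtOH_ATGLi and 154 ± 103 CPM in EtOH_CON. The 9 measured adipocyte markers, Cfd among them, had a median interaction of 0.30. Their sums had medians of 1456 CPM in Cort_ATGLi, 1347 CPM in Cort_CON, 3058 CPM in EtOH_ATGLi and 3369 CPM in EtOH_CON. A sum is weighted to its most abundant members. The median log2 response of the 9 markers to corticosterone was above 0, at 0.69 on atglistatin and 0.14 on control chow. The lower sums on corticosterone water therefore do not describe the list as a whole, nor adipocyte content. The part of adipocytes in the Cfd value was not tested.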
